A study of Mus musculus with 9 samples.

Results

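The histone genes of sorted mouse hematopoietic stem cells (HSCs) are described here. Members were the protein-coding rows of the count file whose symbols name a core or linker histone, which gave 74 of 56748 genes. They comprised 61 genes of the histone clusters, 7 replication-independent variants (*H1f0*, *H1f10*, *H2ax*, *H2az1*, *H2az2*, *H3f3a* and *H3f3b*) and 6 genes known mainly from testis or oocytes. Of the cluster genes, 51 lay on chromosome 13 between positions 21899933 and 23948389 and 10 lay on chromosome 3 between 96127181 and 96177448, in the mm39 coordinates of the file.

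RNA-seq libraries of female C57BL/6 mice were compared in 3 groups of 3: HSCs of young mice aged 6 to 10 weeks (yHSCs), and HSCs of pre-aged mice aged 14 to 16 months (paHSCs), split by surface P-selectin into Selp-low and Selp-high fractions. All groups were sorted from bone marrow by SLAM markers (lineage-negative, Sca1-positive, cKit-positive, CD48-negative, CD150-positive), and no transgene or drug is given for them. The sources used here do not say how many mice entered each library, so p-values measure the spread between these libraries, which may in part be technical.

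Histones package DNA into nucleosomes, each a core of H2A, H2B, H3 and H4 that is sealed by a linker histone H1. Cluster genes are transcribed chiefly in S phase, when new DNA must be packaged, and their mRNAs normally end in a conserved stem-loop in place of a poly(A) tail. Variant genes such as those of H3.3 and H2A.Z are transcribed throughout the cell cycle, carry poly(A) tails and supply histones to cells that do not divide, as most HSCs do not. The cDNA kit used for these libraries starts from poly(A) tails, so the counts of a cluster gene cover the part of its mRNA that such a primer can reach, and the size of that part was not tested.

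The stem-loop was searched in the transcripts of GENCODE release M21 as 6 base pairs that begin with GG around a loop of 4 bases, within 100 bases after the stop codon. The loop had to open with TT and to end in A or C. Such a stem-loop was found in 37 of 61 cluster genes (60.7%) and in 1 of 7 variants, against 46 of 21782 genes with a coding transcript (0.211%). Of these 46 genes, 39 were members. Several genes without a match have no annotated bases after the stop codon. The sequences of the members on which the results below turn are shown with the stem and loop in capitals, because they differ little between genes whose levels differed.
*H2bc8*: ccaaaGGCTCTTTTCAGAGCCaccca
*H2ac8*: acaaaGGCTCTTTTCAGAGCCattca
*H2ac24*: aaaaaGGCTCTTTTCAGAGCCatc
*H1f2*: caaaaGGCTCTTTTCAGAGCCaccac
*H4c17*: ctaaaGGCCCTTTTCAGGGCCatc
*H2ax*: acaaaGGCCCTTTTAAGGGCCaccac
The same core was read in 24 members, among them *H2bc8*, *H2ac8*, *H2ac24* and *H1f2*. *H2bc4*, *H2bc24* and *H4c9* held no such stem-loop within this distance, and their annotated transcripts ran on for up to 742, 823 and 376 bases after the stop codon.

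Promoters of RefSeq (GRCm38.p6, 250 bases before to 50 after the start) were matched for 66 members. The CCAAT box was read on either strand in all 44 matched cluster genes of the H1, H2A, H2B and H3 families and in 3 of 11 H4 genes, against 37.9% of 27025 promoters. The TATA box TATAAA was read in 32 of 55 matched cluster genes (58.2%), against 14.2% of all promoters. ATTTGCA, which holds 7 letters of the octamer known from H2B promoters, was read in 10 of 55 (18.2%), against 3.98%, and these were 5 H2A and 5 H2B genes. All motifs were read on either strand, so neighbours that share upstream sequence can both be counted for the same motif. A pair of neighbours that share their upstream sequence, *H2ac8* and *H2bc8*, is taken up again below. The 250 bases upstream of *H2bc8* (chr13:23571150-23571399, plus strand) also hold most of the promoter window of *H2ac8*, which is read from the other strand, and the 3 motifs are in capitals.
*H2bc8* upstream: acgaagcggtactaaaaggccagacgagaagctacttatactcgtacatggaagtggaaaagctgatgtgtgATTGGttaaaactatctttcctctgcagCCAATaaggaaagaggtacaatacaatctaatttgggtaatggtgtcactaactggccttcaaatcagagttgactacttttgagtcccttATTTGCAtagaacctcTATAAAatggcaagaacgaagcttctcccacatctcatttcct

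Depth was 24866975 to 35375310 counts per library. In Selp-low replicates 2 and 3 the 10 genes with most counts took 44.8% and 20.9% of all counts, against 3.90% to 12.5% in the other 7 libraries. Summed markers of B and plasma cells reached 102900 CPM (counts scaled to library size with TMM factors) in Selp-low replicate 2, and neutrophil markers reached 205600 CPM in Selp-low replicate 3 and 66630 CPM in young replicate 1. *Selp*, the gene used for the gate, was at 259.1 to 662.2 CPM in Selp-high libraries, 28.52 to 108.3 in Selp-low libraries and 21.08 to 31.81 in young libraries. The 9 HSC markers summed to 1044 to 2225 CPM in young libraries, 769.4 to 1477 in Selp-low libraries and 2082 to 3113 in Selp-high libraries. *Cd34*, *Flt3* and *Cd48*, which mark cells outside the most primitive HSC gate, summed to 758.8 to 1508, 74.69 to 383.5 and 98.60 to 109.5 CPM in the same order. The first 2 of these genes were higher in every young library than in any other. *Cd48* was highest in Selp-low replicates 1 and 2 (173.2 and 300.8 CPM), against 16.07 to 33.49 CPM in young libraries. The 7 megakaryocyte markers, of which *Gp1bb* was at 0 in young libraries, summed to 108.0 to 166.0 CPM in young libraries, to 121.3, 1493 and 1930 in Selp-low libraries and to 1155, 6718 and 3509 in Selp-high libraries. In Selp-low replicates 2 and 3 most of this sum was *Pf4* (1112 and 1390 CPM). There *Itga2b*, *Ppbp*, *Treml1* and *Gp9* were also above every young library, while *Tubb1* (10.32 and 1.558 CPM) lay within the young range. The 8 markers of T and NK cells summed to 323.1 to 904.5 CPM in Selp-low libraries and 74.16 to 118.4 in the other 6. In Selp-low replicate 3 that sum (607.9 CPM) was mostly *Nkg7* (598.6 CPM). There *Lck* (6.231 CPM) was below every other library, and *Cd3d*, *Cd3e* and *Cd3g* lay within the range of young and Selp-high libraries. In bulk libraries a lower level per cell and fewer cells of a type cannot be told apart, and the part of these other cells in the histone values was not tested.

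Histone genes took 1.38%, 1.00% and 0.932% of all counts in young libraries, 1.37%, 0.505% and 0.959% in Selp-low libraries, and 0.811%, 0.564% and 0.567% in Selp-high libraries. Scaled with TMM factors, their summed level was 9673 ± 1923 CPM in young libraries, 11130 ± 1855 in Selp-low libraries and 5861 ± 1471 in Selp-high libraries (SD, n = 3). All 3 Selp-high libraries (4768 to 7533 CPM) lay below all 6 others (8451 to 12540 CPM). Most of that sum was variant mRNA: variants held 92.5% to 97.4% of histone counts in every library, and *H3f3b* alone held 46.0% to 77.9%. A sum over members is given as a description, with no test.

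*H3f3b*, which encodes the replacement histone H3.3, had the highest level per length of all members, at a mean of 2034 FPKM (TMM-scaled CPM per kilobase of the gene length in the file). Its levels were 9164, 6763 and 6410 CPM in young libraries, 9696, 5087 and 6587 CPM in Selp-low libraries, and 5779, 2195 and 2791 CPM in Selp-high libraries. Every Selp-high library was below every young library, while replicate 1 was the highest of its group in all 3 groups. The log2 fold change of Selp-high paHSCs over yHSCs was -1.07 ± 0.39 (SE), with an adjusted p of 0.556 by edgeR's quasi-likelihood test. Against Selp-low paHSCs it was -1.04 ± 0.52 (edgeR adjusted p = 0.472), and that comparison overlapped.

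*H3f3a* encodes the same H3.3 protein from another locus, yet ranked the groups differently. It was measured at 906.2, 934.1 and 933.7 CPM in young libraries, 1471, 2229 and 2230 CPM in Selp-low libraries, and 698.7, 1288 and 1075 CPM in Selp-high libraries. The 3 Selp-low libraries stood above all other libraries, and the young libraries were nearly level. The log2 fold change of Selp-low paHSCs over yHSCs was 1.20 ± 0.31 (edgeR adjusted p = 0.332), and that of Selp-high over Selp-low paHSCs was -0.99 ± 0.39 (edgeR adjusted p = 0.378). Per length, the mean level of *H3f3a* was 373.1 FPKM, against 2034 FPKM for *H3f3b*.

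*H2az1* and *H2az2* encode H2A.Z, a variant found near transcription start sites, from coding sequences that are 79.1% identical. *H2az1* stood at 889.6, 320.9 and 352.0 CPM in young libraries, 570.1, 874.4 and 1959 CPM in Selp-low libraries, and 408.6, 575.2 and 719.6 CPM in Selp-high libraries, with overlap in every comparison. *H2az2* stood at 192.8, 96.39 and 110.0 CPM in young libraries, 180.2, 207.5 and 271.8 CPM in Selp-low libraries, and 132.9, 121.8 and 140.2 CPM in Selp-high libraries. For *H2az2* the Selp-high libraries were all below the Selp-low libraries, with a log2 fold change of -0.78 ± 0.26 (edgeR adjusted p = 0.338). For *H2az1* it was -1.04 ± 0.52 (edgeR adjusted p = 0.469).

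*H2ax* encodes the histone whose phosphorylated form marks DNA breaks, and was the variant that carries a stem-loop. Its mRNA level was 140.4, 69.74 and 79.05 CPM in young libraries, 60.24, 113.6 and 189.7 CPM in Selp-low libraries, and 60.68, 102.2 and 141.5 CPM in Selp-high libraries. The groups overlapped throughout, and the log2 fold changes were -0.29 ± 0.49 for Selp-high over Selp-low paHSCs and 0.06 ± 0.41 for Selp-high paHSCs over yHSCs (edgeR adjusted p = 0.841 and 0.999). These counts measure mRNA and say nothing of the phosphorylated protein.

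The levels of both linker variants overlapped in every comparison. *H1f0*, the linker histone of cells that have stopped dividing, was at 253.5, 178.5 and 204.2 CPM in young libraries, 231.3, 119.0 and 155.8 CPM in Selp-low libraries, and 249.3, 121.0 and 198.8 CPM in Selp-high libraries. Replicate 1 was again the highest of each group for *H1f0*. *H1f10*, another replication-independent linker histone, ranged from 1.252 to 12.09 CPM, with the lowest value in young replicate 1 and the highest in Selp-high replicate 3.

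**Figure D1:**
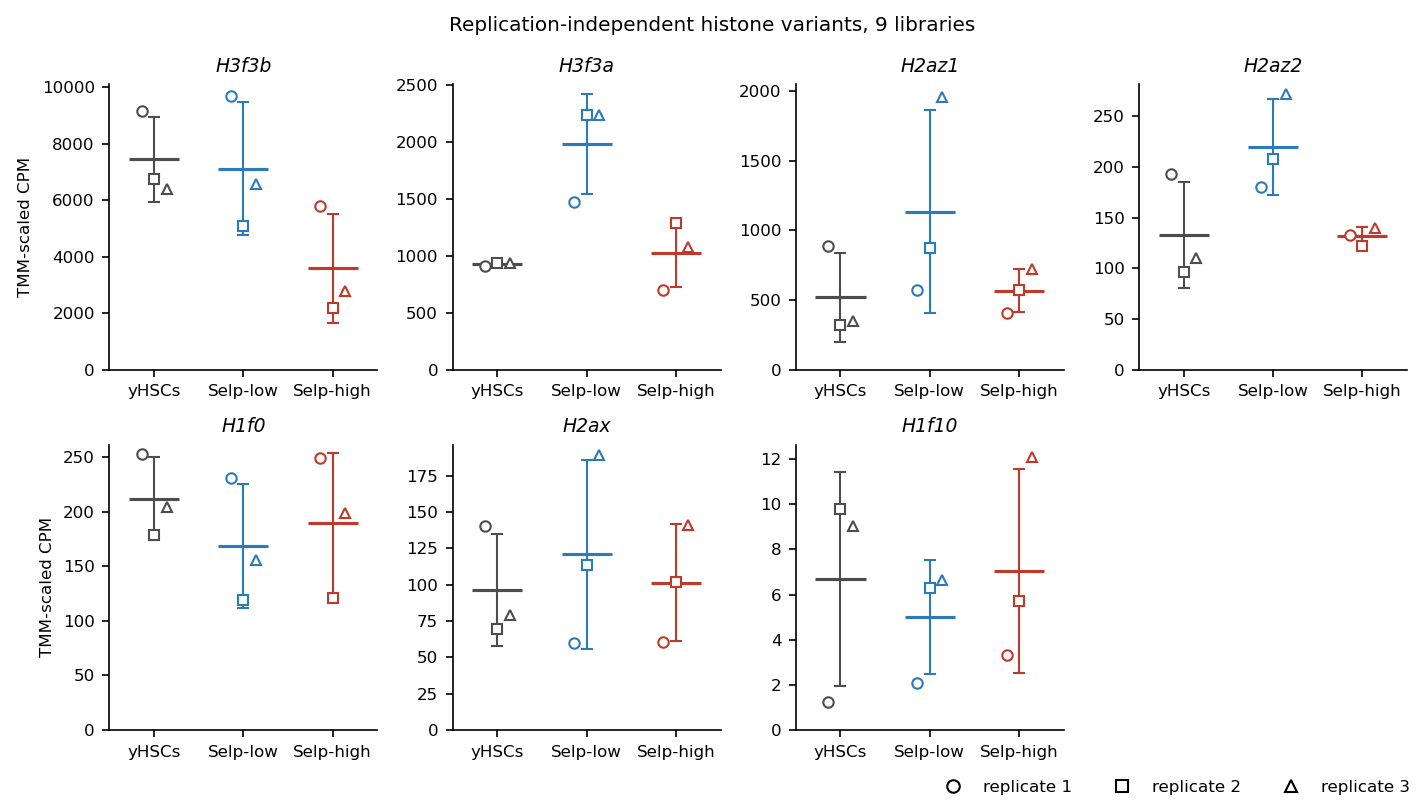
TMM-scaled CPM (y axis, linear from 0) of the 7 replication-independent variants in the 3 libraries of each group. Symbols are the libraries by replicate number, lines the means and bars the SD (n = 3). *H3f3b* was lower in every Selp-high library (2195 to 5779 CPM) than in every young library, and Selp-high and Selp-low libraries overlapped. *H3f3a* was highest in Selp-low libraries (1471 to 2230 CPM).

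Cluster genes together made up 2.61% to 7.52% of histone counts. Their summed level was 333.6 ± 24.7 CPM in young libraries, 378.2 ± 46.1 in Selp-low libraries and 254.0 ± 90.7 in Selp-high libraries (SD, n = 3), with 358.7 CPM in Selp-high replicate 2 and 200.7 and 202.6 in the other libraries of its group. *H1f2*, *H2bc4* and *H2bc8* supplied 41.8% to 77.7% of that sum, the least in Selp-low replicate 3. The 23 cluster genes with more than 150 annotated bases after the stop codon had a median of 719 counts summed over the 9 libraries and a median mean level of 1.23 FPKM, against 94 counts and 0.667 FPKM for the other 38. Of all 74 members, 47 were detected in all 9 libraries, 32 had at least 10 counts in each and 7 had no count in any, which allows up to 3 counts in each library by counting error alone.

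By family, the cluster sums differed in which group was highest. H1 genes summed to 151.0, 161.7 and 182.7 CPM in young libraries, 148.7, 119.7 and 137.1 CPM in Selp-low libraries, and 95.37, 113.1 and 93.50 CPM in Selp-high libraries, a descending order of groups without overlap. *H1f2* made up most of each of these sums, and 4 of the 5 H1 genes had a log2 fold change above 0 in Selp-low paHSCs over yHSCs (median 0.78), against the order of the sums. H3 genes summed to 5.086 to 5.502 CPM in young libraries, 8.015 to 14.02 CPM in Selp-low libraries and 2.834 to 5.187 CPM in Selp-high libraries. H4 genes summed to 14.64 to 15.77 CPM in young libraries, 25.77 to 34.38 CPM in Selp-low libraries, and 12.78, 55.82 and 16.92 CPM in Selp-high libraries. Selp-low paHSCs thus lay above yHSCs for H3 and H4 in every library, and the H4 sum of Selp-high replicate 2 stood apart from its group. That library also had the highest megakaryocyte markers. The summed T and NK cell markers were highest in Selp-low libraries, in replicate 3 mostly through *Nkg7*.

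H2A and H2B genes, whose products pair in the nucleosome, did not follow each other. H2A genes summed to 40.00, 23.61 and 29.10 CPM in young libraries, 32.12, 91.84 and 112.5 CPM in Selp-low libraries, and 13.15, 48.54 and 30.11 CPM in Selp-high libraries. H2B genes summed to 129.7, 99.31 and 121.7 CPM in young libraries, 112.7, 135.2 and 119.2 CPM in Selp-low libraries, and 76.58, 136.1 and 58.11 CPM in Selp-high libraries. The high H2A sums of Selp-low paHSCs were those of replicates 2 and 3, the libraries with many B-cell or neutrophil transcripts. Summed megakaryocyte markers were raised in both (1493 and 1930 CPM), mostly through *Pf4*, and in replicate 1 (121.3 CPM) they lay within the range of yHSCs.

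**Figure D2:**
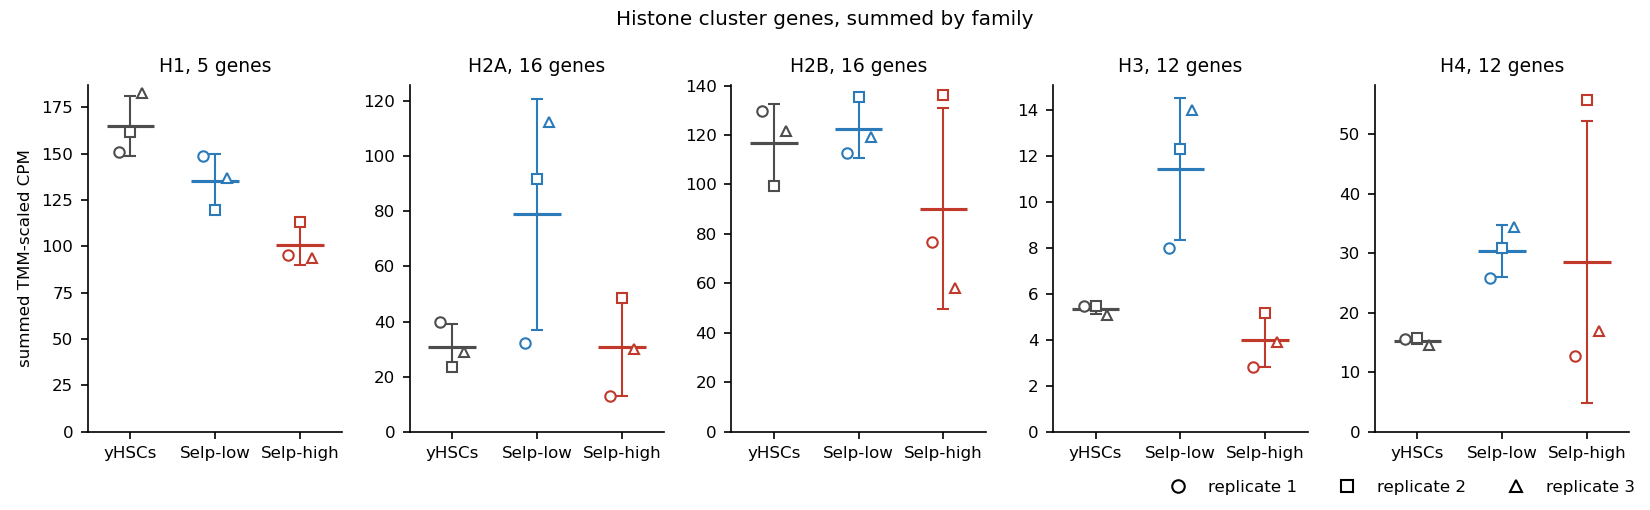
Summed TMM-scaled CPM (y axis, linear from 0) of the cluster genes of each family in the 3 libraries of each group. Symbols are the libraries by replicate number, lines the means and bars the SD (n = 3). The H1 sums, mostly *H1f2*, were 151.0 to 182.7 CPM in yHSCs and 93.50 to 113.1 CPM in Selp-high paHSCs, although 4 of 5 H1 genes had a log2 fold change above 0 in Selp-low paHSCs over yHSCs, and H2A sums were high in Selp-low replicates 2 and 3 (91.84 and 112.5 CPM).

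The first comparison set Selp-high against Selp-low paHSCs, the fractions of 1 age that the gate separates. Of 48 histone genes kept by the low-count filter, 9 had a log2 fold change above 0 and 39 below 0, with a median of -1.01, while 44.8% of the 20370 genes tested lay above 0, with a median of -0.11. The filter can keep a gene through the group where it is high, which can tilt such counts. *H2ac13*, *H2ac15*, *H2bc7* and *H3c3* were tested only in comparisons with Selp-low paHSCs, and *H2bc12* and *H2bc24* only in those with Selp-high paHSCs. *H2bc13* and *H3c15* were tested only in Selp-high over Selp-low paHSCs. No gene of the genome passed an edgeR adjusted p of 0.05 with a log2 fold change of at least 1 (0% of genes tested), 2555 genes had an unadjusted edgeR p under 0.05, and the lowest adjusted p of a histone gene was 0.338. At an unadjusted edgeR p under 0.05, 2 members were higher and 9 lower, against 6.88% and 5.67% of all genes tested. In 2 members all Selp-high libraries were above all Selp-low libraries and in 11 they were below, where 11.1% and 9.85% of all genes tested were apart in these directions. All 5 H1, all 9 H2A and all 7 H3 cluster genes that were tested had a log2 fold change below 0, with medians of -1.08, -1.95 and -1.52. These counts and medians include *H2ac13*, *H2ac15*, *H3c3* and *H3c15*, which the filter can keep through Selp-low paHSCs alone. Without Selp-low replicates 2 and 3, a comparison chosen after the data were seen, the members' median was -0.31 over 55 genes tested, 16 above 0 and 39 below, and that of all genes was 0.03. Of the genes followed singly, 5 changed sign in that fit, namely *H2ax*, *H2ac8*, *H3c11*, *H1f4* and *H1f0*, with log2 fold changes of 0.75, 0.72, 0.70, 0.07 and -0.29. *H2az1*, *H2az2* and *H3f3a* came to -0.01, -0.45 and -0.53, and *H3f3b* to -1.44.

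DESeq2, the tool of the study, called 3 histone genes in this comparison, where it called 2.28% of the genes it tested. *H2bc24* was higher (0.748% of genes tested were called in that direction) and *H2ac15* and *H2ac24* were lower (1.53%). Same-numbered Selp-low and Selp-high libraries deviated together, with correlations of 0.363, 0.402 and 0.415, so the replicate number was taken to pair them in an alternative fit. The labels state no pairing, so the block was chosen from the data it was then fitted to, and its calls may be too many. Fold changes given with an SE are from fits without this pairing. With that pairing as a replicate block, edgeR still called no histone gene (0.0442% of all genes), and DESeq2 called 9, of which 2 were higher (*H2bc24* and *H4c17*) and 7 lower (*H1f5*, *H2ac11*, *H2ac23*, *H2ac24*, *H2bc8*, *H3f3a* and *H3f3b*), while *H2ac15* was no longer called (adjusted p = 0.0704). Under that block DESeq2 called 9.45% of all genes it tested, 4.33% higher and 5.12% lower.

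The second comparison set Selp-high paHSCs against yHSCs. Here 21 of 43 tested members lay above 0 and 22 below, and their median log2 fold change of -0.03 equalled that of all 20017 genes tested (-0.03, 47.8% above 0). edgeR called 33 genes (0.165%), none of them a histone gene. At an unadjusted edgeR p under 0.05, 1 member was higher and 3 lower, against 4.48% and 3.11% of all genes tested. Libraries did not overlap for 1 higher member, *H2bc6*, and 4 lower members, *H1f2*, *H2bc8*, *H3c4* and *H3f3b*, where 8.29% and 5.80% of all genes tested were apart. DESeq2 called *H2bc8* lower and *H4c17* higher, where it called 2.78% of genes tested (1.03% lower and 1.75% higher), and edgeR without a filter on low counts called the same pair.

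The third comparison set Selp-low paHSCs against yHSCs. Of 46 tested members, 40 lay above 0 and 6 below, with a median log2 fold change of 0.93, while 55.1% of the 20437 genes tested lay above 0, with a median of 0.08. Here too the filter can keep a member through the group where it is high. edgeR called no gene in the genome (0%), and 2306 genes had an unadjusted p under 0.05. Of the members, 8 were higher and 0 lower at that unadjusted edgeR p (7.11% and 4.17% of all genes tested), 12 were above and 1 below yHSCs in every library (8.44% and 8.24%), and DESeq2 called *H2ac24* alone, higher, where it called 2.95% of genes tested (1.99% higher). The median was highest for the H2A cluster genes, at 2.03 over 10 genes tested. Without Selp-low replicates 2 and 3, the members' median was 0.18, with 31 of 52 above 0, and that of all genes was -0.11. The genes followed singly that changed sign there were *H3c11*, *H2ax*, *H2bc3*, *H1f5*, *H2ac11* and *H1f0*, with log2 fold changes of -0.86, -0.73, -0.48, -0.39, -0.07 and 0.06, while *H2ac8*, *H3f3a*, *H4c4*, *H4c9* and *H1f4* came to 0.22, 0.60, 0.60, 0.18 and 0.11. The 3 comparisons share libraries, so their values are set side by side and were not correlated.

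**Figure D3:**
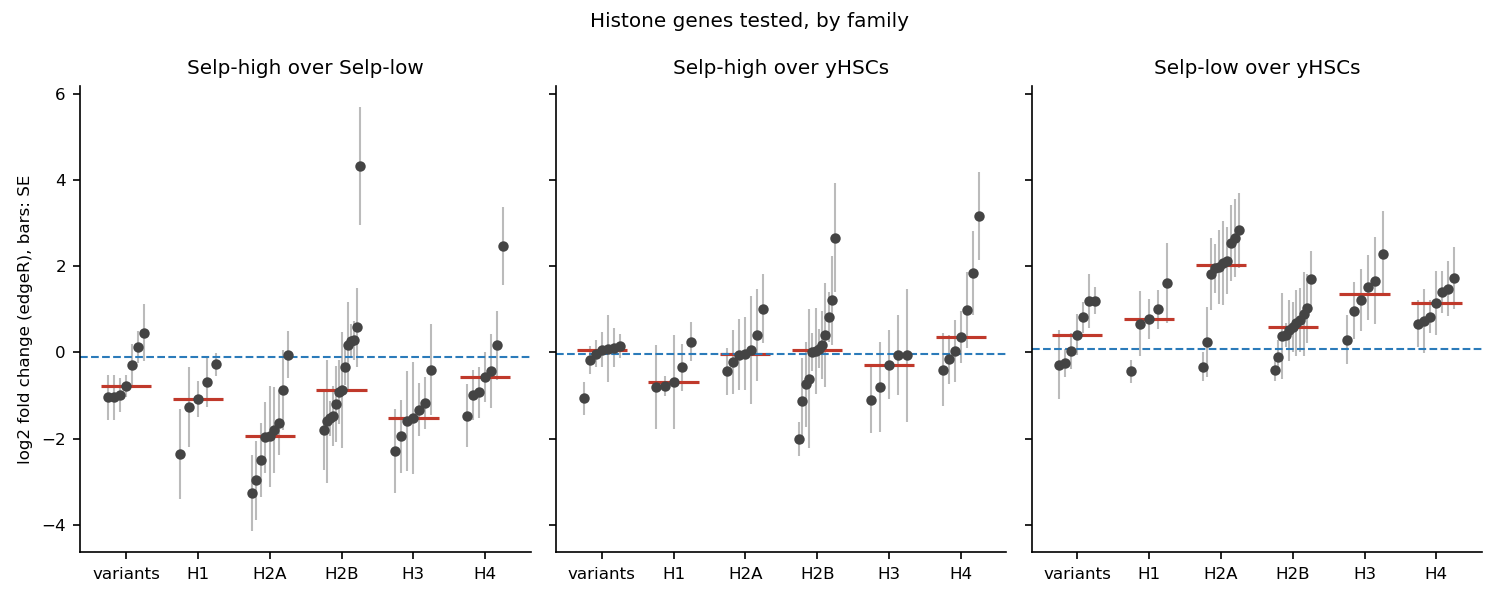
Log2 fold changes (y axis, edgeR) of the histone genes tested in each of the 3 comparisons, grouped on the x axis as variants and cluster families. Points are genes with their SE, red lines the medians of the group and dashed blue lines the median of all genes tested. H2A cluster genes had a median of -1.95 in Selp-high over Selp-low paHSCs and 2.03 in Selp-low libraries over yHSCs. The low-count filter can keep a gene through the group where it is high, which can tilt these medians.

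Among single cluster genes, *H2bc8* (ENSMUSG00000058385, chromosome 13, 23755570 to 23756187, plus strand) had the lowest edgeR adjusted p of any member. This H2B gene was measured at 39.37, 35.15 and 47.19 CPM in young libraries, 25.61, 29.80 and 29.16 CPM in Selp-low libraries, and 15.51, 6.006 and 8.783 CPM in Selp-high libraries, from 242 to 1763 counts per library. The 3 groups did not overlap and descended in that order. *Cd34* and *Flt3* were likewise highest in young libraries, whereas *Cd48* was highest in Selp-low replicates 1 and 2 (173.2 and 300.8 CPM). The log2 fold change of *H2bc8* in Selp-high paHSCs over yHSCs was -2.01 ± 0.40, with an adjusted p of 0.161 by edgeR and 3.49e-04 by DESeq2. When any 1 of the 6 libraries was left out it lay between -2.47 and -1.75, and every DESeq2 fit of these called the gene (adjusted p at most 0.0241) while no edgeR fit did (at least 0.108). Over Selp-low paHSCs it was -1.53 ± 0.40 (edgeR adjusted p = 0.338). Of the windows of 100 bases in its coding sequence, 82.6% recur in another histone gene, so its counts depend on how shared reads were assigned, which is not given in the sources used here.

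*H2ac8*, the H2A gene that starts 175 bases away on the opposite strand from the shared promoter printed above, showed another pattern. It was at 4.904, 4.495 and 4.069 CPM in young libraries, 5.473, 16.41 and 26.77 CPM in Selp-low libraries, and 1.207, 16.38 and 9.456 CPM in Selp-high libraries. On the scale of log2(CPM + 0.5) the range within the Selp-high group was the widest of any member, and the young libraries were nearly level. Every Selp-low library was above every young library, with a log2 fold change of 1.95 ± 0.57 (edgeR adjusted p = 0.337), where that of *H2bc8* was -0.42 ± 0.24 (edgeR adjusted p = 0.582). For Selp-high paHSCs over yHSCs the fold changes were 1.01 ± 0.80 for *H2ac8* and -2.01 ± 0.40 for *H2bc8*. The difference between these neighbours was not tested.

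Such divergent pairs of an H2A and an H2B gene, at most 1000 bases apart, numbered 12 among the members. Both genes were tested in 7 pairs for Selp-high over Selp-low paHSCs, and the signs were the same in 4. *H2ac11* and *H2bc11* were both lower, by log2 fold changes of -1.97 ± 0.83 and -1.48 ± 0.69 (edgeR adjusted p = 0.398 and 0.441). Without Selp-low replicates 2 and 3 these came to -0.01 and -0.41. *H2ac24* and *H2bc24*, 235 bases apart, stood furthest from each other, at -2.97 ± 0.92 and 4.32 ± 1.37 (edgeR adjusted p = 0.338 for both).

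*H2ac24* (chromosome 13, 22017196 to 22017677) was at 4.104, 1.990 and 1.472 CPM in young libraries, 2.737, 26.15 and 21.26 CPM in Selp-low libraries, and 0.8136, 2.581 and 3.171 CPM in Selp-high libraries. Its high values were again those of Selp-low replicates 2 and 3, while replicate 1 overlapped the other groups. The DESeq2 adjusted p was 0.0199 against Selp-high paHSCs and 0.0414 against yHSCs. The first call was lost without Selp-low replicate 2 (0.33), Selp-low replicate 3 (0.0557) or Selp-high replicate 1 (0.113), and the second without young replicate 2 or 3 (0.201 and 0.442) or Selp-low replicate 2 or 3 (0.405 and 0.0673). Without both of those Selp-low libraries, the log2 fold changes were -0.32 for Selp-high over Selp-low paHSCs and 0.06 for Selp-low paHSCs over yHSCs. *H2ac23*, whose coding sequence is identical, was at 2.997, 16.21 and 21.70 CPM in Selp-low libraries and 0.8398, 2.755 and 3.844 CPM in Selp-high libraries, so the pair cannot be told apart by reads within the coding sequence.

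*H2bc24* and *H4c17* were the members that were higher in every Selp-high than in every Selp-low library. *H2bc24* had 16, 16 and 2 counts in young libraries, 2, 0 and 6 in Selp-low libraries, and 70, 171 and 12 in Selp-high libraries, at most 4.244 CPM. *H4c17*, an H4 gene, was at 0.8696, 0.5895 and 2.409 CPM in young libraries, 2.053, 2.307 and 1.630 CPM in Selp-low libraries, and 5.249, 26.75 and 2.357 CPM in Selp-high libraries. DESeq2's call of *H2bc24* between the fractions (adjusted p = 0.0184) was lost without Selp-low replicate 1 or 2 (0.087 and 0.159) or Selp-high replicate 1 or 2 (0.0723 and 0.114). Selp-high replicate 2, the library with the highest megakaryocyte markers (6718 CPM), carried the largest value of both genes, and Selp-high replicate 3 of *H4c17* lay within the young range. The log2 fold change of *H4c17* was 3.17 ± 1.02 over yHSCs (adjusted p of 0.442 by edgeR and 0.0216 by DESeq2) and 2.47 ± 0.90 over Selp-low paHSCs (edgeR adjusted p = 0.358). When a library was left out, the fold change over yHSCs ranged from 1.56 to 3.96, and DESeq2's adjusted p from 0.0022 to 0.459, with the call lost without young replicate 1 or 2 (0.0504 and 0.156) or Selp-high replicate 2 (0.459). The coding sequences of *H4c17* and *H4c18* are identical, as are those of *H2bc24* and *H2bc23*, and their values are uncertain for that reason. *H4c18* was at 0.5774, 3.872 and 1.375 CPM in Selp-high libraries.

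The linker histone *H1f2* (H1.2) was the cluster gene with the highest level per length, at a mean of 71.9 FPKM. It was at 128.1, 149.5 and 168.6 CPM in young libraries, 130.0, 94.28 and 80.20 CPM in Selp-low libraries, and 87.99, 98.33 and 72.48 CPM in Selp-high libraries. Selp-high paHSCs lay below yHSCs without overlap, by a log2 fold change of -0.78 ± 0.23 (edgeR adjusted p = 0.385). *H1f5* (H1.5) ranged far more, from 0.8398 CPM in Selp-high replicate 1 to 27.17 CPM in Selp-low replicate 3, with a log2 fold change of -2.36 ± 1.05 between the fractions (edgeR adjusted p = 0.419), or -0.42 without Selp-low replicates 2 and 3. *H1f4* (H1.4) was above yHSCs in every Selp-low library, by 1.00 ± 0.45 (edgeR adjusted p = 0.465). *H2bc6* overlaps *H1f4* on the same strand, so reads of these genes can be split.

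*H2bc4*, the most abundant H2B gene, was at 76.49, 48.34 and 58.76 CPM in young libraries, 72.56, 87.87 and 65.06 CPM in Selp-low libraries, and 47.13, 104.6 and 33.36 CPM in Selp-high libraries, overlapping throughout. *H2bc11* rested on 27 to 162 counts per library, and its log2 fold change in Selp-low libraries over yHSCs was 1.71 ± 0.64 (edgeR adjusted p = 0.384), or 0.53 without Selp-low replicates 2 and 3. *H2bc3* rested on 7 to 70 counts and fitted -1.80 ± 0.92 for Selp-high over Selp-low paHSCs (edgeR adjusted p = 0.477), or -0.73 without Selp-low replicates 2 and 3.

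*H2ac11*, the H2A cluster gene with the highest level per length, was at 8.0, 2.186 and 1.954 CPM in young libraries, 3.975, 15.77 and 25.72 CPM in Selp-low libraries, and 1.207, 4.517 and 6.145 CPM in Selp-high libraries. Its high values were those of Selp-low replicates 2 and 3. *H2ac15* had 7, 4 and 3 counts in young libraries, 17, 10 and 37 in Selp-low libraries, and 4, 3 and 3 in Selp-high libraries. At so few counts its log2 fold change of -3.26 ± 0.89 between the fractions was imprecise (adjusted p of 0.338 by edgeR and 0.0487 by DESeq2). In DESeq2 that adjusted p was 0.0704 with the replicate block. When a library was left out it ranged from 0.037 to 0.284, the call holding only without Selp-high replicate 2, and none was given without Selp-low replicate 1.

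H3 cluster genes were low throughout, with 3.538 FPKM for the highest, *H3c11*. *H3c11* was at 0.4522, 1.007 and 0.5621 CPM in young libraries, 0.3910, 3.140 and 5.615 CPM in Selp-low libraries, and 0.4199, 0.7694 and 0.7296 CPM in Selp-high libraries. *H3c6* and *H3c1* lay lower in every Selp-high than in every Selp-low library, by log2 fold changes of -1.17 ± 0.61 and -1.95 ± 0.85 (edgeR adjusted p = 0.481 and 0.410). Among H4 genes, *H4c4* and *H4c9* were above yHSCs in every Selp-low library, by 1.40 ± 0.49 and 0.83 ± 0.38 on the log2 scale (edgeR adjusted p = 0.364 and 0.479). The testis and oocyte genes gave at most 6 counts in a library and were not tested.

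**Figure D4:**
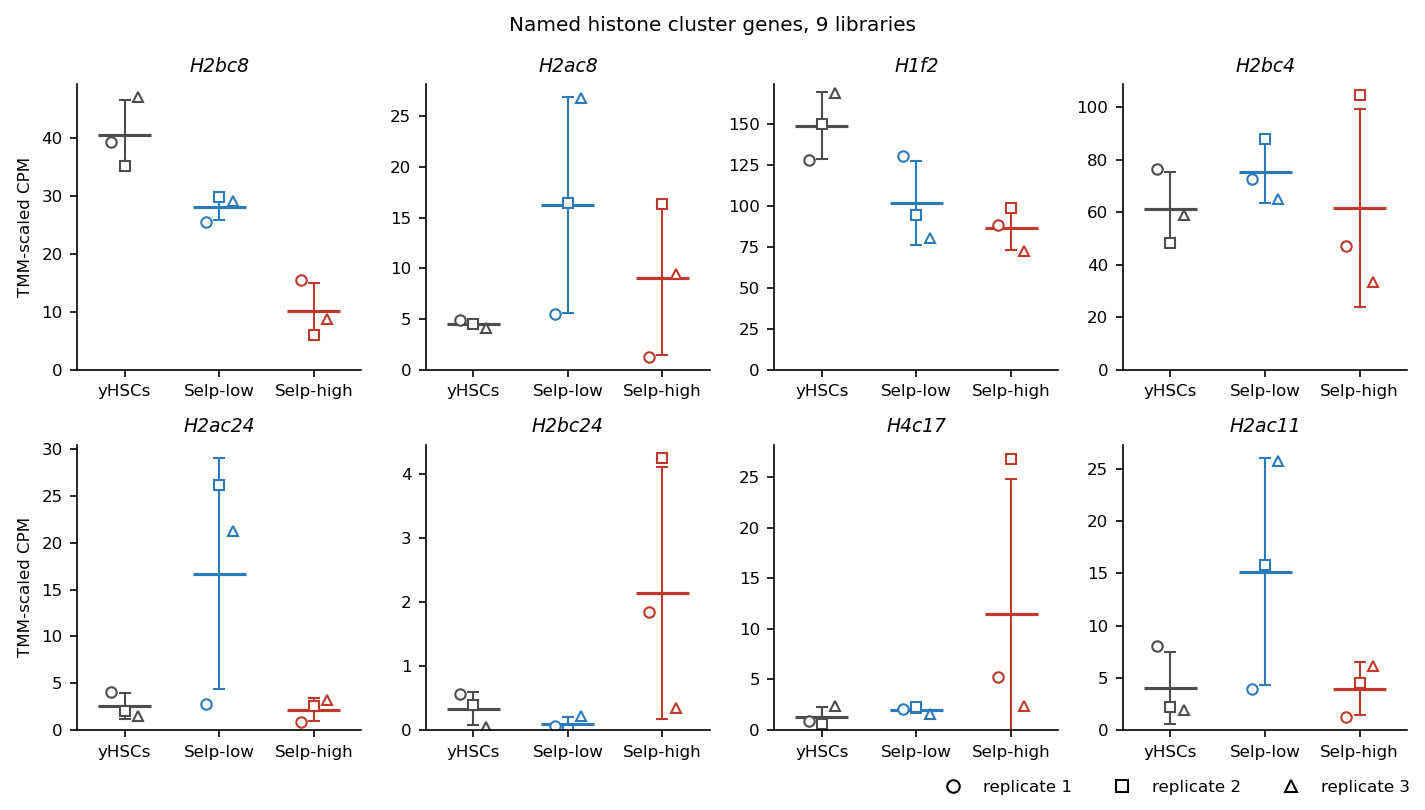
TMM-scaled CPM (y axis, linear from 0) of 8 named cluster genes in the 3 libraries of each group. Symbols are the libraries by replicate number, lines the means and bars the SD (n = 3), cut off at 0. *H2bc8* descended over the 3 groups without overlap, whereas the neighbouring *H2ac8* ranged from 1.207 to 16.38 CPM within Selp-high libraries.

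Genes that act on histones or are transcribed in the same phase were followed in 3 lists. For Selp-high over Selp-low paHSCs the median log2 fold changes were -0.04 for 19 genes of histone mRNA processing and transcription, 0.03 for 24 histone chaperones and exchangers, and -0.31 for 33 genes of DNA replication, against -0.11 for all genes tested. For Selp-high paHSCs over yHSCs they were -0.18, -0.13 and -0.15, and for Selp-low paHSCs over yHSCs they were 0.01, -0.08 and 0.29. edgeR called none of these genes in any comparison, and DESeq2 without a block called none either. *Ipo4*, an importin that carries H3 and H4 into the nucleus, fitted 1.20 ± 0.28 for Selp-high over Selp-low paHSCs, and *Asf1a*, a chaperone of H3 and H4, -0.96 ± 0.24 (edgeR adjusted p = 0.338 for both), and both were without overlap. *Slbp*, whose product binds the stem-loop printed above, fitted -0.71 ± 0.33 (edgeR adjusted p = 0.433).

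The summed replication genes varied between libraries more than between groups. They reached 5338, 3718 and 3919 CPM in young libraries, 2673, 2605 and 8105 CPM in Selp-low libraries, and 2440, 3426 and 5966 CPM in Selp-high libraries. Selp-low replicate 3 was highest for replication genes and for the H2A and H3 sums. Selp-low replicate 2 had an H2A sum of 91.84 CPM beside one of the lowest replication sums, 2605 CPM, and its B and plasma cell markers were the highest of all libraries. The part of cell cycle phase or of any of these cell types in these histone levels was not tested.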

How the data were processed

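RNA-seq was analysed in 9 libraries, 3 per group, grouped by the submitters' labels. Per the authors' processing notes, reads were aligned to mm39 with HISAT2 2.2.1 and assigned to genes with featureCounts 2.0.6. The authors deposited raw counts of reads for each gene, not normalized, beside its length. The sources used here give neither the strand setting, the annotation release nor the rule for reads with several positions. The table has 0 unused columns of per-sample values and no comparison of the authors.

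Counts were fitted for each pair of groups on the whole table in R 4.3.3 with edgeR 4.0.16 (TMM factors, filterByExpr, legacy quasi-likelihood test). P-values were adjusted over all genes tested by Benjamini-Hochberg. Calls required an adjusted p up to 0.05 and a log2 fold change of 1 or more in size. DESeq2 1.42.0 was the alternative test, and its missing adjusted p-values stayed missing. FPKM is TMM-scaled CPM divided by the deposited gene length in kilobases. With 3 libraries per group an exact permutation test of a single value cannot go below 0.1 (2-sided) and was not used. A count of 0 allows up to 3 counts, for counting error only. Scripts were tested on simulated data.

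Members, lists and tests were chosen with earlier results of these data known. Named genes were all variants, the 3 highest cluster genes by FPKM in each family, members called by either tool, the 2 with the largest change in each direction of each comparison, and the gene with the widest range of log2(CPM + 0.5) within a group. *H2ac23*, *H4c18*, *H2bc6*, *Ipo4*, *Asf1a* and *Slbp* were named after their values were seen. So were other genes listed with counts of 5 or fewer or by the comparisons in which they were tested. Same-numbered libraries deviated together for the paHSC fractions (0.363, 0.402 and 0.415), not for yHSCs against Selp-high paHSCs (-0.183, -0.187 and -0.007) or Selp-low paHSCs (0.095, 0.04 and 0.073). Coding spans and sequences after the stop codon came from GENCODE M21 and promoters from RefSeq (GRCm38.p6), matched by gene ID or symbol, and no coordinate was carried between builds. Figures were drawn in Python with matplotlib.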

Additional observations from a re-analysis of the deposited data

How the results depend on the processing

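No histone gene was called by edgeR in the reported fits, and the counts of called genes depended on the tool. For Selp-high over Selp-low paHSCs DESeq2 called 3, or 9 with a replicate block, and 0 to 4 when a library was left out. For Selp-high paHSCs over yHSCs edgeR without a filter on low counts called 2, DESeq2 called 2 (*H2bc8* and *H4c17*), with a replicate block again 2 but *H2bc8* and *H3f3b* (log2 fold change -1.18, adjusted p = 0.00298) while *H4c17* was lost (0.0948), and 0 to 4 when a library was left out. In Selp-low paHSCs over yHSCs, 1 was called by DESeq2, 0 with its replicate block, and 0 to 8 when a library was left out, with 8 without young replicate 1 and 6 without Selp-low replicate 1. Of the 3 lists, DESeq2 with a replicate block called 2 genes for Selp-high over Selp-low paHSCs. For Selp-low paHSCs over yHSCs, 0 to 6 list genes were called when a library was left out, and DESeq2 called 2 without Selp-low replicates 2 and 3. The edgeR replicate block called 0 histone genes in each comparison, RLE factors, the newer quasi-likelihood setting, the fit of all 9 libraries and no fold-change minimum likewise 0, and for yHSCs the same numbers share no deviation. The mean histone share of counts was 1.10% in yHSCs and 0.647% in Selp-high paHSCs, and 0.275% and 0.466% without the 10 genes with most counts of each library, which by construction removes *H3f3b* in 5 libraries. These were all young libraries, Selp-low replicate 1 and Selp-high replicate 1. *H3f3b* stayed in Selp-high replicates 2 and 3, so the shares without those genes cannot be compared between the groups. The median histone log2 fold change of Selp-high over Selp-low paHSCs lay between -1.32 and -0.75 with a library left out, and that of Selp-low paHSCs over yHSCs between 0.62 and 1.07. Other causes were not tested.

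Of 73 fold changes of named genes, 30 changed sign under some setting, and none of these was called by edgeR as reported. For Selp-high paHSCs over yHSCs, *H2az2* came to 0.01 in the fit of all 9 libraries, 0.05 with the replicate block and 0.04 with it in DESeq2, *H2ac11* to 0.01, 0.18 and 0.19 in the same order, and *H2bc4* to -0.02 with RLE factors and in DESeq2, -0.16 with the replicate block and -0.17 with it in DESeq2. For Selp-low paHSCs over yHSCs, *H3f3b* came to 0.00 with RLE factors and in the fit of all 9 libraries, -0.03 without a filter, -0.02 in DESeq2 and -0.03 with its replicate block. Without Selp-low replicates 2 and 3, edgeR and DESeq2 gave for Selp-high over Selp-low paHSCs -0.29 and -0.33 for *H1f0*, 0.75 and 0.70 for *H2ax*, 0.07 and 0.02 for *H1f4*, 0.72 and 0.66 for *H2ac8*, and 0.70 and 0.66 for *H3c11*. Over yHSCs they gave 0.06 and 0.17 for *H1f0*, -0.73 and -0.65 for *H2ax*, -0.39 and -0.35 for *H1f5*, -0.07 and -0.02 for *H2ac11*, -0.86 and -0.72 for *H3c11*, and -0.48 and -0.34 for *H2bc3*. These fits leave 1 Selp-low library, which is assumed to vary like the others.

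When a library was left out, the fold changes that crossed 0 had these edgeR ranges, with the DESeq2 values of opposite sign beside them. For Selp-high over Selp-low paHSCs they were *H1f0* -0.10 to 0.44 (-0.07 and -0.10 in DESeq2), *H1f10* -0.20 to 0.81 (-0.18 in DESeq2) and *H2ax* -0.63 to 0.19 (0.17 in DESeq2). For Selp-high paHSCs over yHSCs they were *H1f0* -0.40 to 0.07 (0.04 in DESeq2), *H1f10* -0.55 to 0.47 (-0.36 and -0.52 in DESeq2), *H2az2* -0.21 to 0.37 (0.41 in DESeq2), *H2az1* -0.14 to 0.78 (-0.19 and -0.20 and -0.15 in DESeq2), *H2ax* -0.23 to 0.47 (-0.17 and -0.15 and -0.29 in DESeq2), *H3f3a* -0.07 to 0.36 (-0.09 in DESeq2), *H1f5* -2.16 to 0.30 (0.34 in DESeq2), *H1f4* -0.09 to 0.58 (-0.12 in DESeq2), *H2ac11* -0.48 to 0.96 (0.99 and 0.33 in DESeq2), *H2ac24* -0.55 to 0.36 (0.39 and 0.14 in DESeq2), *H2bc4* -0.62 to 0.32 (-0.17 and -0.10 and -0.65 in DESeq2), *H2bc11* -0.29 to 0.49 (-0.33 in DESeq2), *H3c11* -0.27 to 0.34 (0.31 and 0.15 in DESeq2), *H3c6* -0.55 to 0.01 (0.03 in DESeq2), *H4c9* -0.62 to 0.25 (0.22 in DESeq2) and *H4c4* -0.02 to 0.72 (-0.05 in DESeq2). For Selp-low paHSCs over yHSCs they were *H1f10* -0.84 to 0.08 (0.06 in DESeq2), *H2ax* -0.09 to 0.77 (-0.11 in DESeq2), *H3f3b* -0.26 to 0.19 (-0.13 and -0.15 and -0.29 in DESeq2) and *H2bc3* -0.02 to 1.08 (-0.03 in DESeq2).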
